A study of Mus musculus with 6 samples.

Results

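The genes described here encode the subunits of respiratory chain complexes III and IV and of ATP synthase, together with cytochrome *c*. They were taken by symbol: the *Uqcr* genes and *Cyc1* for complex III, *Cycs* for cytochrome *c*, the *Cox4* to *Cox8* genes for complex IV, the *Atp5* genes for ATP synthase, and *mt-Cytb*, *mt-Co1*, *mt-Co2*, *mt-Co3*, *mt-Atp6*, and *mt-Atp8* from the mitochondrial genome. With at least 10 counts summed over all libraries, 48 genes were members, of 55491 in the table. They comprised 9 nuclear genes of complex III, 15 of complex IV, 17 of ATP synthase, 1 gene for cytochrome *c*, and 6 mitochondrially encoded genes. The same symbols also matched 10 pseudogenes, with at most 162 counts in a library, and 3 entries at 0 in every library (*Cox7b2*, *Cox8c*, and a second entry for *Atp5o*), which were left out. The rule sets aside *Cox7a1* and *Cox8b*, isoforms that serve as brown fat markers, and these are given below only as values. RNA came from inguinal white adipose tissue (IWAT), the subcutaneous fat pad of the groin, of 4-week-old male mice on a C57BL/6J background fed regular chow. The groups were 3 *Ebf2*+/+ mice and 3 *Ebf2*E165X/+ mice, with 1 library per mouse. The *Ebf2*E165X/+ mice carry, in every cell and on 1 allele, a stop codon knocked in by CRISPR/Cas9 in *Ebf2* (p.E165X), a transcription factor gene of the adipocyte lineage. The labels give no litters. Expected counts, the estimated number of fragments per gene, summed to between 106820505 and 135039488 per library. All levels below are CPM, the count relative to library size scaled by the TMM factors of edgeR.

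Complex III passes electrons from ubiquinol to cytochrome *c*, complex IV (cytochrome *c* oxidase) passes them on to oxygen, and ATP synthase uses the resulting proton gradient to make ATP. Each of these 3 complexes is built from subunits of both genomes, a few encoded in mitochondrial DNA and the others in the nucleus. In fat, mitochondria and respiratory chain subunits are abundant in brown and beige adipocytes and sparser in white ones, and skeletal muscle is rich in them and uses its own isoforms of some complex IV subunits.

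The targeted gene was at 38.3, 41.3, and 37.2 CPM in *Ebf2*+/+ and at 22.8, 22.9, and 21.1 CPM in *Ebf2*E165X/+ libraries. The genotypes did not overlap, and the log2 fold change of *Ebf2* was −0.81 (SE 0.076, edgeR adjusted *P* = 0.0596, DESeq2 adjusted *P* = 1.23e-13). Without the third *Ebf2*E165X/+ library, described below, it was −0.77 (edgeR adjusted *P* = 0.0423). None of the 48 members lies on chromosome 14, where *Ebf2* is.

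Of the 48 members, 45 had a lower fitted level in *Ebf2*E165X/+ IWAT, and 3 had a higher one (*Cox6a2*, *Atp5g1*, and *Atp5j*). The median log2 fold change over the members was −0.34, whereas it was 0.02 over the 26057 genes with at least 10 counts, of which 46.2% were lower. No member passed edgeR's quasi-likelihood test at an adjusted *P* under 0.05 with a fold change above 1.5, a call that 0.00918% of 32664 genes (3 genes) received. The lowest adjusted *P* by edgeR was 0.377, for *Cox6a1*. At an unadjusted *P* under 0.05, 22 members were lower and 0 were higher, where 3.7% of all genes were lower and 2.0% higher at that level. In 19 members (39.6%), all *Ebf2*E165X/+ libraries were below all *Ebf2*+/+ libraries, which held for 6.58% of all genes. DESeq2, the program the study used, gave 8 lower members at an adjusted *P* under 0.05, where 1.07% of all genes with an adjusted *P* were lower. These 8 were *Uqcr10*, *Uqcr11*, *Cox4i1*, *Cox6a1*, *Cox6b1*, *Cox8a*, *mt-Atp8*, and *mt-Co1*, and 3 of them (*Cox6a1*, *Cox8a*, and *mt-Atp8*) also passed the threshold on fold change, as did 0.535% of all genes in that direction.

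**Figure D1:**
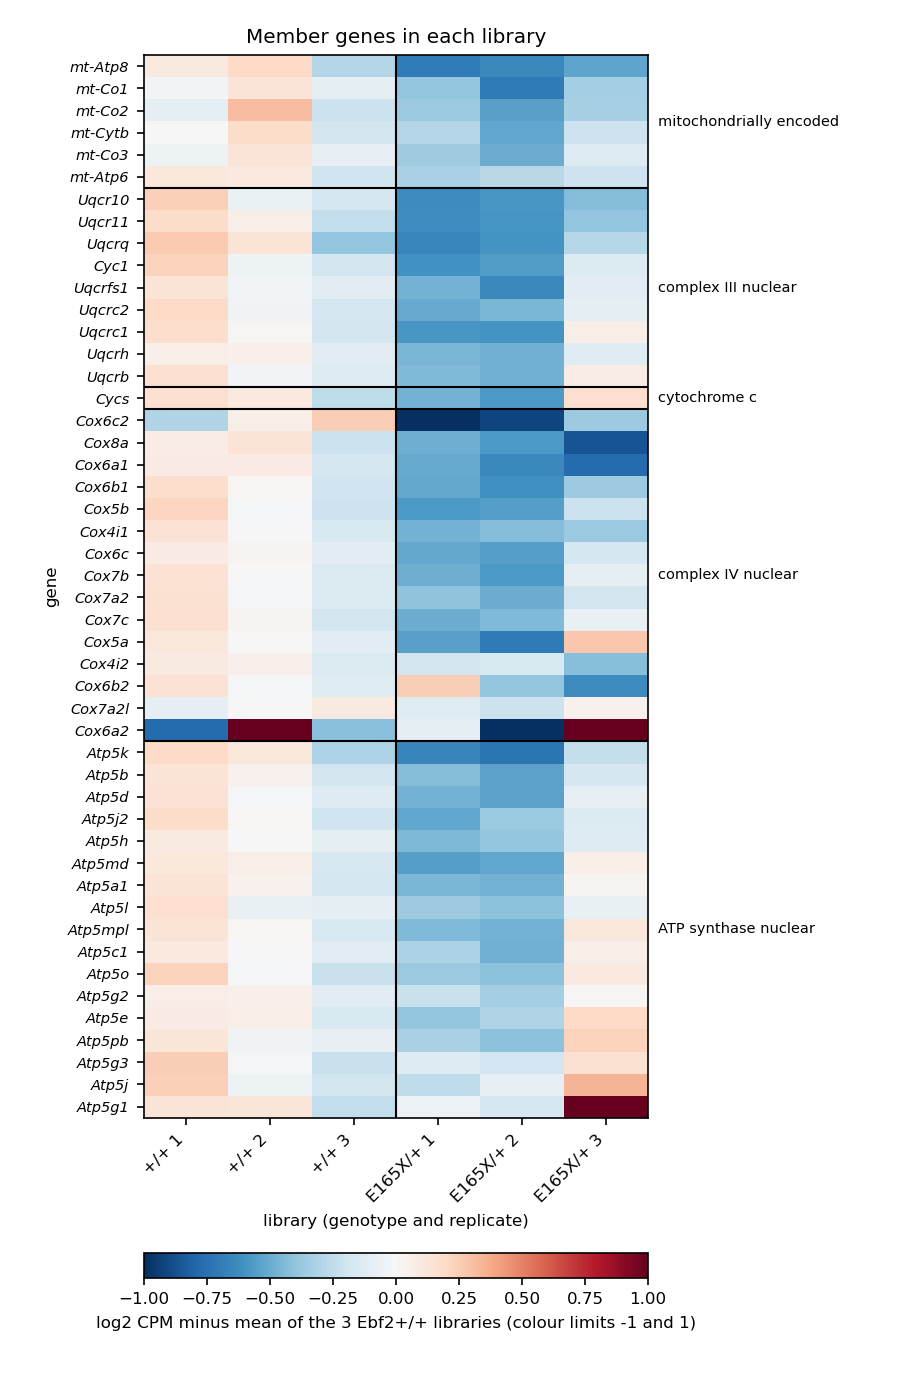
Each row is a member gene and each column a library, and the colour gives log2 CPM minus the mean of the 3 *Ebf2*+/+ libraries, with values beyond −1 and 1 drawn at the end colours. The first and second *Ebf2*E165X/+ columns are blue in nearly every row, whereas the third is pale or red in many nuclear rows and dark red at *Cox6a2* and *Atp5g1*.

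The *Ebf2*E165X/+ libraries were not alike. Relative to the *Ebf2*+/+ mean, the median member was at −0.46, −0.51, and −0.12 (log2) in the *Ebf2*E165X/+ libraries, replicates 1 to 3, compared with 0.14, 0.02, and −0.17 in the *Ebf2*+/+ libraries. The third *Ebf2*E165X/+ library was thus within the *Ebf2*+/+ range, and the other two were below it. Below the lowest *Ebf2*+/+ value were 44 members in the first of these libraries, 45 in the second, and 20 in the third. Of all 26057 genes, 6112, 6948, and 7134 were below that value in the same libraries, in that order. Replicate 3 of *Ebf2*E165X/+ also carried the most RNA of skeletal muscle. The 13 muscle markers, of which myosin heavy chain *Myh4* was the most abundant, summed to 0.202%, 0.851%, and 0.334% of counts in *Ebf2*+/+ libraries and to 0.374%, 0.0914%, and 4.79% in *Ebf2*E165X/+ libraries. With all libraries, the 13 had a higher fitted level in *Ebf2*E165X/+, and without the third *Ebf2*E165X/+ library all 13 had a lower one (median log2 fold change −1.05). None was at 0 in all libraries. The part of muscle RNA in the members' levels was not tested, and in whole tissue fewer cells of a type and less RNA per cell cannot be told apart.

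Without the third *Ebf2*E165X/+ library, all 48 members were lower, with a median log2 fold change of −0.47. That library was singled out after its values were seen, and its median member was the highest of its genotype. Lower values without it follow in part from that choice. In 43 members, both remaining *Ebf2*E165X/+ libraries were below all *Ebf2*+/+ libraries, which held for 12.4% of all genes, and 35 members were lower at an unadjusted *P* under 0.05, compared with 4.32% of all genes. In that fit the lowest adjusted *P* of a member by edgeR was 0.181, for *Cox5a*. The number of members lower at an unadjusted *P* under 0.05 also depended on the other libraries. Without *Ebf2*+/+ replicate 1, 2, or 3 it was 12, 13, or 25, while 2.69%, 3.48%, or 4.11% of all genes were lower at that level. Without the first or second *Ebf2*E165X/+ library it was 9 or 11, compared with 4.03% or 3.03% of all genes. The count of members lower with no overlap was 19, 19, and 31 without each *Ebf2*+/+ library in turn. Of all genes, 9.92%, 11.4%, and 11.4% were lower with no overlap. The member count was 20 and 19 without the first and the second *Ebf2*E165X/+ library, where 12.0% and 11% of all genes were lower with no overlap.

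**Figure D2:**
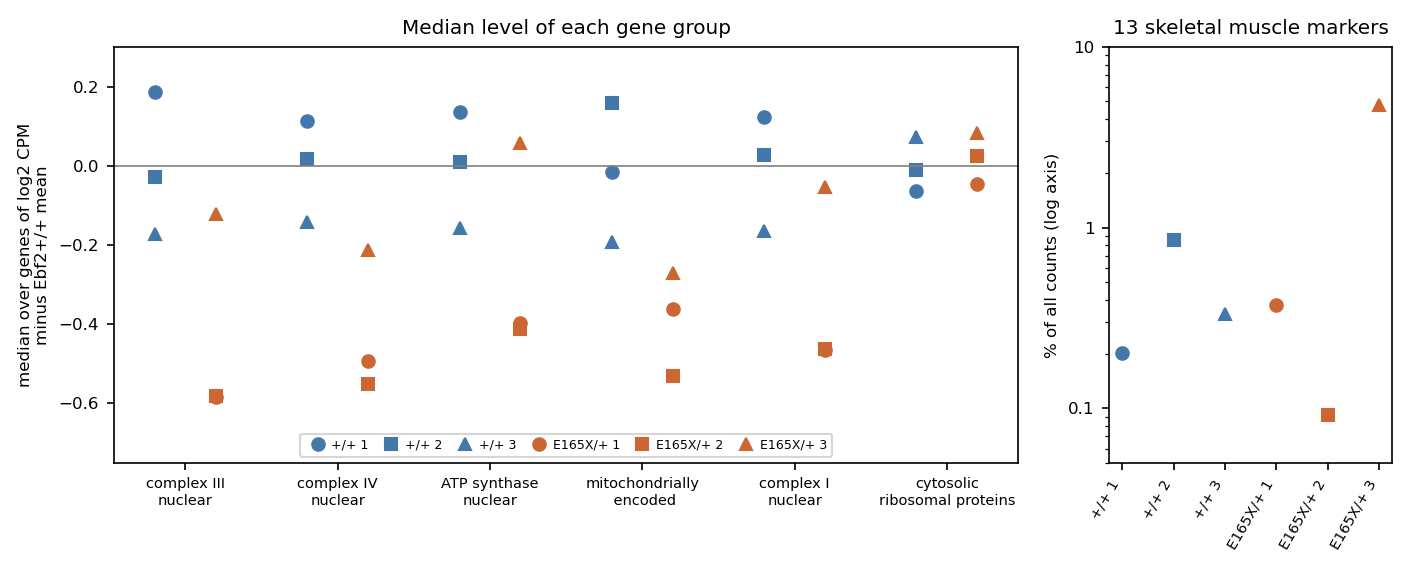
The left panel gives, for each gene group and library, the median over genes of log2 CPM minus the *Ebf2*+/+ mean, and the right panel gives the summed share of 13 skeletal muscle markers in percent of counts on a log axis. Blue marks *Ebf2*+/+ and orange *Ebf2*E165X/+, and the third *Ebf2*E165X/+ library (triangle) has the highest muscle share, at 4.79%, and the highest group median of its genotype in each group of respiratory chain genes.

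Promoter sequence was examined for what the members share apart from the naming rule. The 250 bases before the gene start were searched in RefSeq windows (GRCm38.p6), which were found for 31 of the 42 nuclear members, in 34 windows. No window was matched for *Atp5a1*, *Atp5mpl*, *Cox4i1*, *Cox4i2*, *Cox6a2*, *Cox6c*, *Cox6c2*, *Cyc1*, *Uqcrb*, *Uqcrc2*, and *Uqcrq*. The letters CGCANGCG of nuclear respiratory factor NRF1, a regulator of respiratory chain genes, were present on either strand in 26.5% of member windows (9 members) and in 9.17% of all 21262 windows of protein-coding genes. The EBF letters TCCCNNGGG were present in 11.8% of member windows (4 members) and in 6.24% of all windows. For GABPA (CCGGAAGT) the shares were 8.82% (3 members) and 3.79%, for YY1 (AAGATGGC) 2.94% (1 member, *Atp5j*) and 1.496%, and for the estrogen-related receptors (TCAAGGTCA) 2.94% (1 member, *Atp5g3*) and 0.320%. These are matches of letters only. The stretches below come from members whose values are given by library in the following paragraphs and whose window holds a match. They are printed 5′ to 3′ on the gene's strand, with the matches in capitals.
*Cox6a1*, chr5:115349055-115349129 (minus strand), with NRF1 letters at −161 and −116 and EBF letters at −136 from the gene start: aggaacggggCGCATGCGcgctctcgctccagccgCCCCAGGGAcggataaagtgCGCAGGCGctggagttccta
*Atp5k*, chr5:108434429-108434514 (minus strand), EBF letters at −105 and NRF1 letters at −49: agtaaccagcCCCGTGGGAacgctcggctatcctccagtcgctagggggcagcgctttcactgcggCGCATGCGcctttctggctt
*Atp5h*, chr11:115419939-115420069 (minus strand), NRF1 letters at −140 and GABPA letters at −39: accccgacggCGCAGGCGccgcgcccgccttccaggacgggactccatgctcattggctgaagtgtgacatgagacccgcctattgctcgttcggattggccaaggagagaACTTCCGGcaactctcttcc
*Cycs*, chr6:50566611-50566803 (minus strand), overlapping EBF letters on the opposite strands at −224 and −223 and NRF1 letters at −61: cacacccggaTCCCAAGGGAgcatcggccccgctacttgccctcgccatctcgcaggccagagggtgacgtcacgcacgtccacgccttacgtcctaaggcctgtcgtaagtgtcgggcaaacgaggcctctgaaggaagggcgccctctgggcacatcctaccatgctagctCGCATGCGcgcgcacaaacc
*Uqcr11*, chr10:80406868-80406897 (minus strand), GABPA letters at −66: tctctcctccCCGGAAGTagatgtcaatgt
*Uqcrh*, chr4:116075071-116075091 (minus strand), GABPA letters at −11: agtatgccgcACTTCCGGcca

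All 9 nuclear genes of complex III were lower in *Ebf2*E165X/+ IWAT, with log2 fold changes from −0.56 to −0.26 and a median of −0.39. By library, the median complex III gene was at 0.19, −0.03, and −0.17 (log2, relative to the *Ebf2*+/+ mean) in *Ebf2*+/+ and at −0.58, −0.58, and −0.12 in *Ebf2*E165X/+ libraries. At an unadjusted *P* under 0.05, 7 of the 9 were lower (3.7% of all genes). In 3 (*Uqcr10*, *Uqcr11*, and *Uqcrh*) the genotypes did not overlap, where 6.58% of all genes were lower with no overlap. Without the third *Ebf2*E165X/+ library the median was −0.59, and all 9 were lower at an unadjusted *P* under 0.05 (4.32% of all genes). In all 9 the genotypes then did not overlap, where 12.4% of all genes were lower with no overlap. *Uqcr10*, a small subunit of the complex, was at 88.1, 71.0, and 66.0 CPM in *Ebf2*+/+ and at 48.1, 49.8, and 55.2 CPM in *Ebf2*E165X/+ libraries. Its log2 fold change was −0.56 (SE 0.117, edgeR adjusted *P* = 0.617, DESeq2 adjusted *P* = 0.00723). *Uqcr11*, another small subunit, was at 85.4, 78.1, and 63.3 CPM in *Ebf2*+/+ and at 48.8, 49.8, and 57.2 CPM in *Ebf2*E165X/+ libraries, with no overlap. The log2 fold change was −0.54 (SE 0.121, edgeR adjusted *P* = 0.686, DESeq2 adjusted *P* = 0.0144). *Uqcrh*, the hinge protein that helps cytochrome *c* dock on cytochrome *c1*, was at 124, 123, and 109.5 CPM compared with 86.5, 84.9, and 109.03 CPM, so that the third *Ebf2*E165X/+ library lay just below the lowest *Ebf2*+/+ library. *Uqcrq* was at 114, 104, and 72.4 CPM and at 60.5, 62.8, and 78.2 CPM, and here the third *Ebf2*E165X/+ library was above the lowest *Ebf2*+/+ library. The gene nearest to 0 was *Uqcrb*, at 126, 111, and 103 CPM in *Ebf2*+/+ and at 83.0, 80.7, and 119 CPM in *Ebf2*E165X/+ libraries. A near-identical copy of *Uqcrb*, *Gm2962*, held counts equal to 1.21% of those of *Uqcrb*, and reads shared between them cannot be told apart. The core proteins *Uqcrc1* and *Uqcrc2* and the Rieske iron-sulfur protein *Uqcrfs1* had log2 fold changes between −0.39 and −0.35 in all 6 libraries and between −0.60 and −0.49 without the third *Ebf2*E165X/+ library.

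Both cytochromes were below every *Ebf2*+/+ library in 2 of 3 *Ebf2*E165X/+ libraries. *Cyc1*, the cytochrome *c1* of complex III, was at 238, 196, and 179 CPM in *Ebf2*+/+ and at 134, 138, and 184 CPM in *Ebf2*E165X/+ libraries. The fitted log2 fold change of *Cyc1* was −0.43 (SE 0.158, edgeR adjusted *P* = 0.783) and −0.59 without the third *Ebf2*E165X/+ library. *Cycs*, the soluble carrier between complexes III and IV, was at 196, 188, and 147 CPM compared with 126, 118, and 198 CPM. The third *Ebf2*E165X/+ library was the highest of all 6 for *Cycs*, whose log2 fold change was −0.26 (SE 0.209) and −0.54 without that library.

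Of the 15 nuclear genes of complex IV, 14 were lower, 9 of them at an unadjusted *P* under 0.05 (3.7% of all genes). In 9 (*Cox4i1*, *Cox4i2*, *Cox5b*, *Cox6a1*, *Cox6b1*, *Cox6c*, *Cox6c2*, *Cox7a2*, and *Cox8a*) the genotypes did not overlap. Among these, *Cox6c2* had only 4, 5, and 7 counts in *Ebf2*+/+ and 1, 2, and 4 in *Ebf2*E165X/+ libraries. Its separation in CPM therefore rests on library scaling. Lower with no overlap were 6.58% of all genes, and the median log2 fold change of the 15 was −0.37. By library, the median gene was at 0.11, 0.02, and −0.14 (log2) in *Ebf2*+/+ and at −0.49, −0.55, and −0.21 in *Ebf2*E165X/+ libraries, so that here the groups were apart. Without the third *Ebf2*E165X/+ library the median log2 fold change was −0.53. In that fit 10 of the 15 were lower at an unadjusted *P* under 0.05 (4.32% of all genes). In 13 the genotypes did not overlap, where 12.4% of all genes were lower with no overlap. *Cox6a1*, the widely expressed form of subunit VIa, was at 212, 212, and 179 CPM in *Ebf2*+/+ (201 ± 19.3, SD, n = 3) and at 141, 128, and 118 CPM in *Ebf2*E165X/+ libraries (129 ± 11.8, SD, n = 3). Its log2 fold change was −0.64 (SE 0.108, edgeR adjusted *P* = 0.377, DESeq2 adjusted *P* = 4.11e-05). *Cox8a*, the widely expressed form of subunit VIII, was at 194, 203, and 158 CPM compared with 131, 124, and 101 CPM. Its log2 fold change was −0.64 (SE 0.133, edgeR adjusted *P* = 0.581, DESeq2 adjusted *P* = 0.00208). For both of these genes, the third *Ebf2*E165X/+ library was the lowest of all 6, in contrast to most members, and the log2 fold changes without it were −0.58 and −0.54. *Cox6b1*, which joins the monomers of the oxidase, was at 224, 199.8, and 172 CPM in *Ebf2*+/+ and at 139, 129, and 153 CPM in *Ebf2*E165X/+ libraries, a log2 fold change of −0.50 (SE 0.119). *Cox4i1*, the main form of subunit IV, was at 563, 510, and 457 CPM compared with 365, 377, and 393 CPM, a log2 fold change of −0.43 (SE 0.115). *Cox7a2* was at 91.2, 81.6, and 74.5 CPM compared with 62.1, 58.1, and 72.4 CPM, with the third *Ebf2*E165X/+ library close to the lowest *Ebf2*+/+ library.

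The forms of complex IV subunits known from particular tissues were measured apart. *Cox6a2* (chr7:128205435-128206387), the heart and skeletal muscle form of subunit VIa, was at 4.30, 16.9, and 5.49 CPM in *Ebf2*+/+ and at 6.89, 1.76, and 87.5 CPM in *Ebf2*E165X/+ libraries. The third *Ebf2*E165X/+ library was the highest and the second the lowest, the same order at both ends as the summed muscle markers. The log2 fold change of *Cox6a2* was 1.85 (SE 1.21, edgeR adjusted *P* = 0.783), and without the third *Ebf2*E165X/+ library it was −1.04. Under limma-voom the value with all libraries was 0.52. The ratio of *Cox6a2* to *Cox6a1* counts was 0.0203, 0.0794, and 0.0307 in *Ebf2*+/+ and 0.0488, 0.0137, and 0.743 in *Ebf2*E165X/+ libraries. *Cox4i2*, the form of subunit IV known from lung, was at 4.09, 3.97, and 3.47 CPM compared with 3.38, 3.44, and 2.84 CPM, with no overlap. *Cox6b2*, known from testis, was at 1.79, 1.59, and 1.48 CPM compared with 1.93, 1.23, and 1.04 CPM, with overlap. *Cox7a2l*, a paralog of *Cox7a2*, was at 123, 131, and 140 CPM compared with 121, 113, and 135 CPM, a log2 fold change of −0.10 (SE 0.0950). For *Cox7a2l* the value was −0.17 without the third *Ebf2*E165X/+ library. *Cox6c2* had fewer than 10 counts in every library. The remaining members, *Cox5a*, *Cox5b*, *Cox6c*, *Cox7b*, and *Cox7c*, had log2 fold changes from −0.45 to −0.26, and from −0.63 (*Cox5a*) to −0.48 (*Cox7c*) without the third *Ebf2*E165X/+ library. *Cox5a* was higher in that library (158 CPM) than in any *Ebf2*+/+ library (121 to 141 CPM).

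The isoforms set aside by the rule had their lowest values in the first and second *Ebf2*E165X/+ libraries. *Cox7a1*, a form of subunit VIIa found in brown fat, heart, and skeletal muscle, was at 12.5, 19.0, and 13.8 CPM in *Ebf2*+/+ and at 4.14, 2.46, and 21.7 CPM in *Ebf2*E165X/+ libraries. *Cox8b*, a form of subunit VIII with a like distribution, was at 31.4, 48.9, and 32.0 CPM compared with 13.6, 17.7, and 32.8 CPM. Without the third *Ebf2*E165X/+ library, the log2 fold changes were −2.19 for *Cox7a1* (edgeR adjusted *P* = 0.0997) and −1.26 for *Cox8b* (edgeR adjusted *P* = 0.226), compared with −0.68 (SE 0.718) and −0.81 (SE 0.326) with it. The ratio of *Cox7a1* to *Cox7a2* counts was 0.137, 0.233, and 0.185 in *Ebf2*+/+ and 0.0666, 0.0423, and 0.300 in *Ebf2*E165X/+ libraries, and that of *Cox8b* to *Cox8a* was 0.162, 0.241, and 0.202 compared with 0.104, 0.143, and 0.325.

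**Figure D3:**
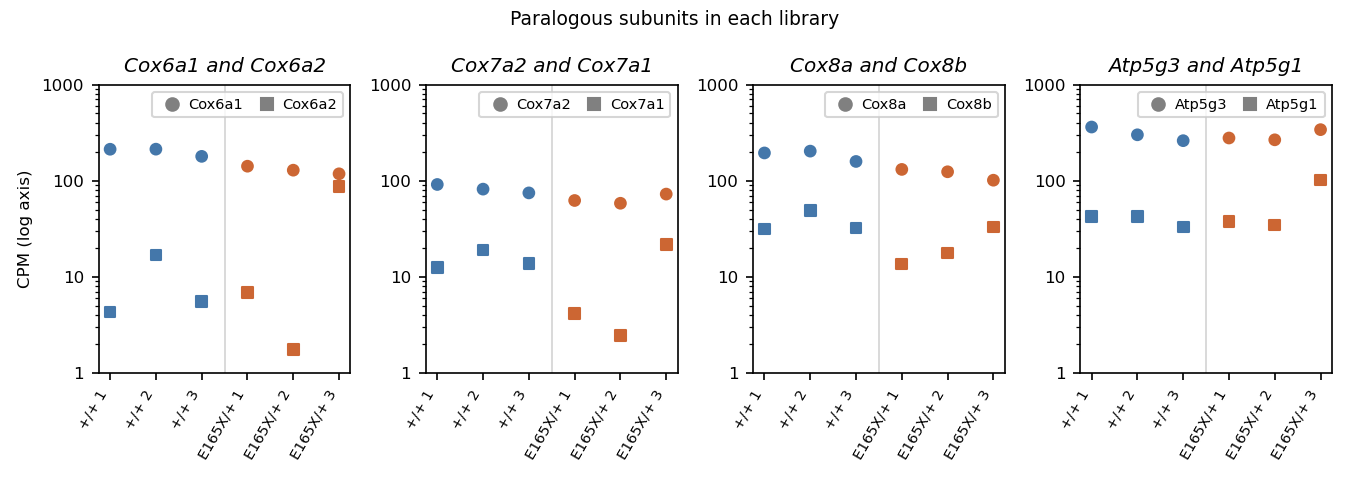
Each panel shows a widely expressed subunit gene (circles) and a paralog (squares) as CPM on a log axis in each library, blue for *Ebf2*+/+ and orange for *Ebf2*E165X/+. *Cox6a2* and *Atp5g1* stand out in the third *Ebf2*E165X/+ library, at 87.5 and 102 CPM, while *Cox6a1* and *Cox8a* are lowest there.

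The 17 nuclear genes of ATP synthase were closer to the *Ebf2*+/+ level. Their median log2 fold change was −0.25, and 15 were lower, 5 of them at an unadjusted *P* under 0.05 (3.7% of all genes). In 1 of the 17 (*Atp5h*) the genotypes did not overlap, a share of 5.88%, where 6.58% of all genes were lower with no overlap. By library, the median gene was at 0.14, 0.01, and −0.16 (log2) in *Ebf2*+/+ and at −0.40, −0.41, and 0.06 in *Ebf2*E165X/+ libraries, with the third *Ebf2*E165X/+ library inside the *Ebf2*+/+ range. Without that library the median log2 fold change was −0.40, and all 17 genes were lower, 14 at an unadjusted *P* under 0.05 (4.32% of all genes). In 14 the genotypes then did not overlap, where 12.4% of all genes were lower with no overlap. The difference between complexes was not tested.

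*Atp5k*, subunit e of the membrane part, was at 50.3, 47.6, and 35.5 CPM in *Ebf2*+/+ and at 27.8, 26.6, and 37.3 CPM in *Ebf2*E165X/+ libraries, with a log2 fold change of −0.54 (SE 0.170, edgeR adjusted *P* = 0.783). *Atp5h*, subunit d of the peripheral stalk, was at 157, 146, and 138 CPM compared with 108, 112, and 134 CPM, a log2 fold change of −0.32 (SE 0.106). *Atp5d*, the delta subunit of the catalytic head, was at 155, 139, and 128 CPM compared with 101, 96.9, and 132 CPM, and *Atp5j2*, subunit f of the membrane part, at 158, 139.7, and 121 CPM compared with 96.6, 107, and 126 CPM. In both, the third *Ebf2*E165X/+ library was just above the lowest *Ebf2*+/+ library.

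By position in the enzyme, the 5 genes of the catalytic head (*Atp5a1*, *Atp5b*, *Atp5c1*, *Atp5d*, and *Atp5e*) had a median log2 fold change of −0.29, the 4 of the peripheral stalk (*Atp5h*, *Atp5j*, *Atp5o*, and *Atp5pb*) −0.18, and the 5 other membrane subunits (*Atp5j2*, *Atp5k*, *Atp5l*, *Atp5md*, and *Atp5mpl*) −0.31. Without the third *Ebf2*E165X/+ library these medians were −0.47, −0.39, and −0.46. For *Atp5l*, the gene *Gm10221*, identical over 309 aligned bases, held counts equal to 9.83% of those of *Atp5l*. The proton-carrying c ring is encoded by *Atp5g1*, *Atp5g2*, and *Atp5g3*, whose mature protein is the same. *Atp5g1* was at 42.5, 42.3, and 32.8 CPM in *Ebf2*+/+ and at 37.3, 34.6, and 102 CPM in *Ebf2*E165X/+ libraries. The third *Ebf2*E165X/+ library was the highest, and the others were within the *Ebf2*+/+ range. Its log2 fold change was 0.56 (SE 0.394, edgeR adjusted *P* = 0.783) with all libraries and −0.12 without that library. The ratio of *Atp5g1* to *Atp5g3* counts was 0.118, 0.141, and 0.126 in *Ebf2*+/+ and 0.134, 0.130, and 0.300 in *Ebf2*E165X/+ libraries. *Atp5g2* and *Atp5g3* had log2 fold changes of −0.18 (SE 0.106) and −0.06 (SE 0.153), and *Atp5j* was at 0.01 (SE 0.172).

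**Figure D4:**
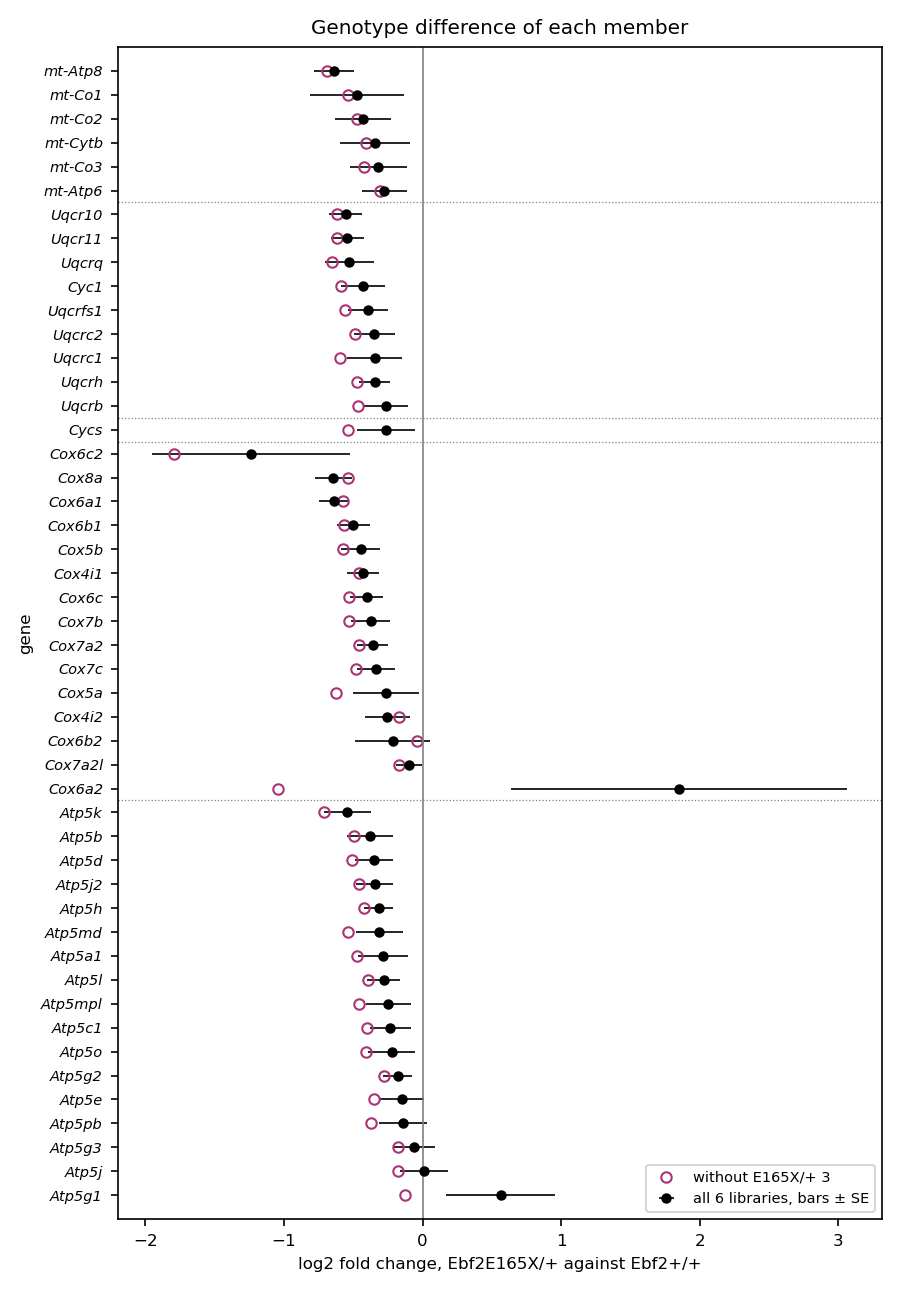
Filled points give the log2 fold change of each member, *Ebf2*E165X/+ against *Ebf2*+/+, with bars of 1 SE from edgeR, and open circles give the value without the third *Ebf2*E165X/+ library. With all 6 libraries 45 of 48 points are below 0, and without the third *Ebf2*E165X/+ library all 48 are.

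In CPM, the 6 mitochondrially encoded members were lower in each *Ebf2*E165X/+ library than in any *Ebf2*+/+ library (6.58% of all genes). Nuclear copies, described below, were not added here, and the median log2 fold change was −0.39. At an unadjusted *P* under 0.05, 1 of the 6 (*mt-Atp8*) was lower, both with all libraries (3.7% of all genes) and without the third *Ebf2*E165X/+ library (4.32% of all genes). The median gene was at −0.02, 0.16, and −0.19 (log2) in *Ebf2*+/+ and at −0.36, −0.53, and −0.27 in *Ebf2*E165X/+ libraries. *mt-Co1*, the catalytic core subunit of complex IV, was at 33294, 37214, and 31768 CPM in *Ebf2*+/+ and at 26038, 20829.7, and 26911 CPM in *Ebf2*E165X/+ libraries, a log2 fold change of −0.47 (SE 0.339, edgeR adjusted *P* = 0.783, DESeq2 adjusted *P* = 0.0342). *mt-Cytb*, the cytochrome *b* of complex III, was at 10945, 12444, and 9609.97 CPM compared with 8928, 7620.1, and 9492 CPM, a log2 fold change of −0.34 (SE 0.254). *mt-Atp8*, a small membrane subunit of ATP synthase, was at 477, 514, and 365 CPM compared with 276, 285, and 311 CPM. Its log2 fold change was −0.64 (SE 0.144, edgeR adjusted *P* = 0.708, DESeq2 adjusted *P* = 0.00241). Its annotation shares 43 bases with that of *mt-Atp6*, which lies next to it on the same strand, and reads over those bases cannot be told apart.

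The other 3 mitochondrial members share their counts with nuclear genes of the same sequence. *Gm28661* is identical to *mt-Co2* over 681 of 684 bases and held 217% of its counts, *Gm10925* is identical to *mt-Atp6* over 678 of 681 bases and held 285%, and *Gm28437* is identical to *mt-Co3* over 783 of 784 bases and held 94.0%. Reads from such stretches cannot be told apart, and the share of counts on the mitochondrial gene varied between libraries from 24.0% to 31.2% for *mt-Atp6*, from 30.4% to 33.1% for *mt-Co2*, and from 50.1% to 53.2% for *mt-Co3*. Without the copies added, *mt-Co2*, a core subunit of complex IV, was at 3075, 4077, and 2825 CPM in *Ebf2*+/+ and at 2542, 2257, and 2610.3 CPM in *Ebf2*E165X/+ libraries. *mt-Co3*, also a core subunit, was at 4953, 5592, and 4842 CPM compared with 4005, 3636, and 4683 CPM. *mt-Atp6*, the membrane subunit a of ATP synthase, was at 2398, 2385, and 1951 CPM compared with 1789, 1839.7, and 1933 CPM. With the copies added, the log2 fold changes were −0.42 (SE 0.252) for *mt-Co2*, −0.37 (SE 0.240) for *mt-Atp6*, and −0.30 (SE 0.244) for *mt-Co3*. *mt-Co3* then overlapped, at 9143 CPM in the third *Ebf2*E165X/+ library and 9107 CPM in the lowest *Ebf2*+/+ library. In *mt-Co2* and *mt-Atp6* the genotypes still did not overlap. Before copies were added, 6.58% of all genes were lower with no overlap. No copies were added to *mt-Co1*, *mt-Atp8*, or *mt-Cytb*.

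**Figure D5:**
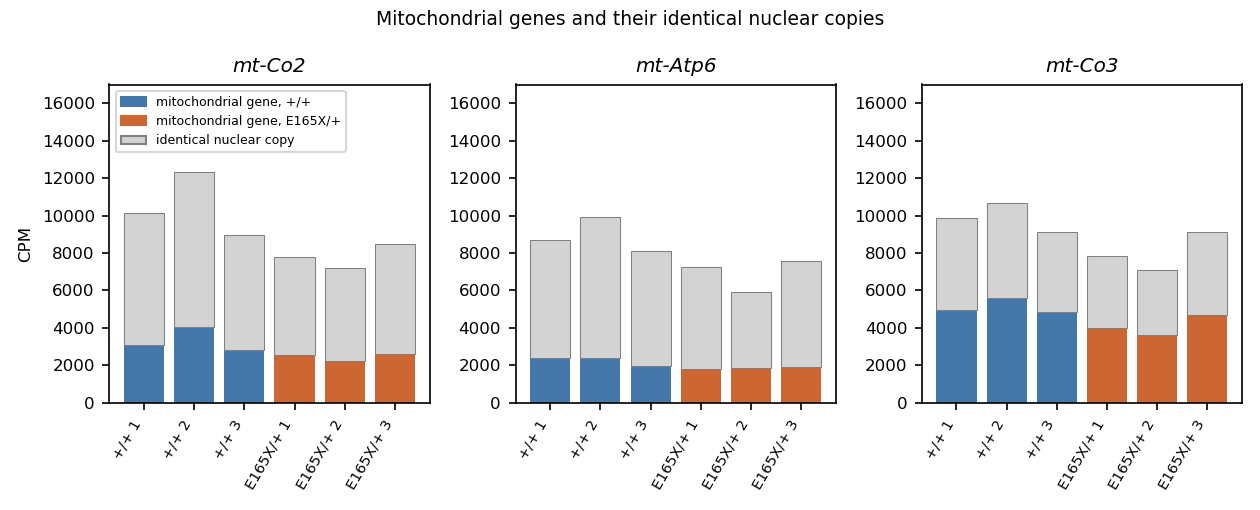
Bars give CPM on each mitochondrial gene (blue, *Ebf2*+/+; orange, *Ebf2*E165X/+) with the identical nuclear copy stacked above it in grey, in each library. The grey part is the larger for *mt-Atp6* and *mt-Co2*, and the summed bars of *mt-Co3* overlap between the genotypes (9143 against 9107 CPM).

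As a share of all counts, mitochondrially encoded genes took 8.24%, 9.63%, and 8.11% in *Ebf2*+/+ and 7.14%, 6.14%, and 6.87% in *Ebf2*E165X/+ libraries (8.66% ± 0.840 and 6.72% ± 0.519, SD, n = 3, two-sided exact permutation test, *P* = 0.1, the smallest that 3 against 3 allows). The 42 nuclear members together took 0.898%, 0.844%, and 0.752% compared with 0.650%, 0.642%, and 0.767%. The ratio of mitochondrially encoded to nuclear member counts was 5.91, 7.27, and 6.83 in *Ebf2*+/+ and 7.0001, 6.05, and 5.68 in *Ebf2*E165X/+ libraries, and the genotypes overlapped. Both the mitochondrial share and this ratio leave out counts on the nuclear copies *Gm28661*, *Gm10925*, and *Gm28437*. Mitochondrial reads counted on those copies are therefore missing from both. Copies of mitochondrial genes that are not members were not searched for.

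Other gene lists were measured beside these, where 3.7% of all genes were lower at an unadjusted *P* under 0.05 with all libraries and 4.32% without the third *Ebf2*E165X/+ library. Nuclear complex I subunits (NADH dehydrogenase) were lower in 38 of 40 genes, 19 of them at an unadjusted *P* under 0.05, with a median log2 fold change of −0.30. When that library was left out, 37 of the 40 were lower at that level, with a median of −0.46. *Ndufa1*, an accessory subunit, had a log2 fold change of −0.41 (SE 0.0789, edgeR adjusted *P* = 0.489, DESeq2 adjusted *P* = 0.00723). All 4 complex II subunits (succinate dehydrogenase) were lower, 3 of them at an unadjusted *P* under 0.05 (4 without the third *Ebf2*E165X/+ library), with a median of −0.42, and the flavoprotein *Sdha* was at −0.50 (SE 0.133). The 7 *mt-Nd* genes of complex I were all lower, 2 of them at an unadjusted *P* under 0.05 (3 without the third *Ebf2*E165X/+ library), with a median of −0.34. Assembly factors, which build the complexes without being part of them, had smaller medians. The median was −0.22 for 6 tested factors of complex III (6 lower, 0 at an unadjusted *P* under 0.05), −0.13 for 24 of complex IV (22 lower, 2 at an unadjusted *P* under 0.05), and −0.22 for 5 of ATP synthase (5 lower, 3 at an unadjusted *P* under 0.05). When that library was left out, 4 of 6, 7 of 24, and 5 of 5 of these factors were lower at that level, with medians of −0.28, −0.20, and −0.29. *Atpaf2*, which helps assemble the head of ATP synthase, had a log2 fold change of −0.39 (SE 0.0795, edgeR adjusted *P* = 0.516, DESeq2 adjusted *P* = 0.0127). Cytosolic ribosomal protein genes were lower in 34 of 92 genes, 2 of them at an unadjusted *P* under 0.05, with a median of 0.02. When the third *Ebf2*E165X/+ library was left out, 54 of the 92 were lower, with a median of −0.01.

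Markers of the cell types of the fat pad were measured beside the members. The 9 adipocyte markers, with lipoprotein lipase *Lpl* the most abundant, were all detected and summed to 2.09%, 2.23%, and 1.94% of counts in *Ebf2*+/+ and to 2.14%, 2.06%, and 1.26% in *Ebf2*E165X/+ libraries. All 9 had a lower fitted level (8 of 9 without the third *Ebf2*E165X/+ library), and the third *Ebf2*E165X/+ library had the lowest sum. The 9 brown and beige adipocyte markers, with *Cidea* the most abundant, also all had a lower fitted level, with sums of 0.0187%, 0.0264%, and 0.0257% compared with 0.00513%, 0.00546%, and 0.0153%, and the genotypes did not overlap. This list holds *Cox7a1* and *Cox8b*, described above, and *Cpt1b*, the carnitine palmitoyltransferase of muscle and brown fat. In the third *Ebf2*E165X/+ library *Cox7a1* (21.7 CPM), *Cpt1b* (71.6 CPM), and *Ppargc1a* (14.7 CPM), a coactivator of mitochondrial genes, were above every *Ebf2*+/+ library. In the same library *Cidea* (13.2 CPM), the uncoupling protein gene *Ucp1* (0.617 CPM), *Otop1* (3.04 CPM), and *Elovl3* (0.180 CPM) were below every *Ebf2*+/+ library, and *Cox8b* and *Dio2* were within the *Ebf2*+/+ range. B cell markers (5 genes, *Ms4a1* the most abundant) summed to 0.0283%, 0.0464%, and 0.0479% compared with 0.0515%, 0.0597%, and 0.0493%. T cell markers (4 genes, *Cd3g*) summed to 0.00981% to 0.0139% in *Ebf2*+/+ and 0.0120% to 0.0154% in *Ebf2*E165X/+ libraries, and macrophage markers (4 genes, *Mrc1*) to 0.0428% to 0.0618% compared with 0.0549% to 0.0632%. Endothelial markers (3 genes, *Pecam1*) summed to 0.0839% to 0.0909% compared with 0.0623% to 0.0907%, progenitor markers (4 genes, *Cd34*) to 0.0504% to 0.0667% compared with 0.0623% to 0.0699%, and epithelial markers (5 genes, *Krt5*) to 0.000190% to 0.00668% compared with 0.000165% to 0.00289%. No marker of these lists was at 0 in all libraries. The part of these cell types in the members' levels was not tested.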

How the data were processed

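IWAT RNA from 6 mice was sequenced as 1 library per mouse. The supplement describes 3′ mRNA libraries and ENSEMBL 109 annotation, whereas the labels name a kit of another maker. The submitters' processing notes name cutadapt 4.8, FastQC 0.11.8, STAR 2.7.8a, RSEM 1.3.3, MultiQC 1.20, and GRCm38. The authors deposited expected counts per gene, not normalized, all of them whole numbers. Groups and replicate numbers were taken from the labels. P values of the fits weigh the genotype difference against the spread between these mice.

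The fit covered the 32664 genes that had a count in some library. Genotypes were compared in R 4.3.3 with the quasi-likelihood test of edgeR 4.0.16 with TMM factors, with Benjamini-Hochberg adjustment across that whole table. Calls needed a fold change above 1.5 (linear) and an adjusted *P* under 0.05. Fold changes are log2, *Ebf2*E165X/+ against *Ebf2*+/+, with a prior count of 2 in log2 CPM. Shares of genes lower with no overlap, or lower at an unadjusted *P*, are over the 26057 genes with at least 10 summed counts. The standard errors cover counting error and the spread between mice together. The fit was tested on simulated data, and the result of that test is not given here.

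Members and lists were chosen with earlier results of these data known. The result of 1 marker list is not reported here. Values by library are given for the mitochondrially encoded members, *Cyc1*, *Cycs*, paralog pairs of complex IV, and in each nuclear group the 4 genes with the smallest *P* and the gene with the highest fold change. Genes named from the comparison lists, *Atp5g2*, *Atp5g3*, *Atp5j*, *Cox5a*, and the core proteins of complex III were named after their values were seen. The third *Ebf2*E165X/+ library was likewise singled out after its values were seen.

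Alternatives were each library left out in turn, a replicate block, DESeq2 1.42.0, limma-voom (limma 3.58.1), edgeR with DESeq2's size factors, no threshold on fold change, 2 stricter filters (filterByExpr, and at least 10 counts in every library), and a fit that omitted the mitochondrially encoded genes. Adding the counts of nuclear copies was chosen after seeing the data. Copies were found with blastn 2.17.0 between transcripts at an identity of at least 95% over at least 50% of a member's length. Coordinates of genes are from the GENCODE M21 annotation of GRCm38, and promoter windows are from RefSeq (GRCm38.p6). Tables and plots were made with Python 3.11.15, numpy 2.4.6, pandas 2.3.3, and matplotlib 3.10.9.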

Additional observations from a re-analysis of the deposited data

How the results depend on the processing

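In 44 of 48 members the direction held under all 14 alternatives that gave a value. *Atp5j* turned to −0.0032 with the mitochondrially encoded genes left out and to −0.0074 with at least 10 counts in every library. Leaving out each library in turn, its log2 fold change ran from −0.17 to 0.13, that of *Atp5g3* from −0.19 to 0.056, that of *Atp5g1* from −0.12 to 0.83, and that of *Cox6a2* from −1.04 to 2.702. DESeq2 called 98 genes and 3 members, where edgeR called 3 and 0, and the cause was not tested. With each library left out in turn, edgeR called 1 to 11 genes, and 9 to 35 members were lower at an unadjusted *P* under 0.05 (2.69% to 4.32% of all genes). In those fits 19 to 43 members were lower with no overlap (9.92% to 12.4% of all genes), and the complex IV median ran from −0.53 to −0.30. With a replicate block, 14 members were lower at an unadjusted *P* under 0.05 (3.17% of all genes), and 0 members were called. The replicate numbers were not treated as pairs, since the deviations of same-numbered libraries correlated at 0.15, −0.28, and −0.16 and 0 of 6 libraries correlated best with their own number. Under limma-voom 0 members were called. How many of all genes limma-voom and the block fit called is not given here, so neither 0 can be set against a share. *Cox6c2* gave no value under filterByExpr or at least 10 counts in every library.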
